A study of Mus musculus with 11 samples.

Results

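Dscam, Dscaml1, Sdk1, Sdk2 and the contactins Cntn1 to Cntn6 encode immunoglobulin superfamily adhesion proteins known for steering retinal neurites to their sublayers. The 10 genes were chosen by symbol from 24421 genes counted in sorted J-RGCs, retinal ganglion cells marked by the adhesion gene Jam2 that respond to movement in a preferred direction, and all 10 were counted. The mutants were labelled Tbr1 KO, for loss of a T-box transcription factor, and gave 6 libraries from 4 animals. KO animal a gave libraries 1 and 2, KO animal b gave 3 and 4, and KO animals c and d gave libraries 5 and 6. The controls were labelled WT and gave 5 libraries from 4 animals. Library 1 came from WT animal a, libraries 2 and 3 from WT animal b, and the other two from WT animals c and d. All animals were on a mixed C57BL/6 and CD1 background and were taken at postnatal day 4 to 5. In both genotypes the cells carried green fluorescent protein from a J-RGC transgenic line and were sorted into pools of 100 cells, and 1 pool gave 1 library. The labels name neither the Tbr1 allele nor the promoter of the transgene.

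The inner plexiform layer is where ganglion cells receive input from bipolar and amacrine cells, and each cell type places its dendrites in particular sublayers. Dscam and sidekick proteins bind copies of themselves on neighbouring cells, and in the chick retina they are known for matching pre- and postsynaptic partners to the same sublayer. Contactins are held at the membrane by a lipid anchor and signal through partner receptors. In the mouse, Dscam is also known for spacing cells of 1 type and keeping their dendrites apart.

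Counts were summed per animal, which was the replicate, and are given as CPM, read counts scaled to a common library size with TMM factors. Libraries held 8609845 to 34718693 reads in genes. Sums per animal ran from 32270464 to 55493192 in KO animals and from 24830192 to 39643629 in WT animals. No molecular identifiers were described, so reads are not independent molecules. Jam2, the defining gene of the cell type, was present in every animal, at 87.4 to 130 CPM in KO animals and 452 to 619 CPM in WT animals. Tbr1 was at 120 ± 23.4 CPM in KO animals and 169.5 ± 16.5 CPM in WT animals (SD, n = 4 each). Counts per gene cannot show whether the deleted part is gone, and the genotype labels were therefore not checked by this value. Summed CPM of 13 pan ganglion cell markers was 19378 to 21077 in KO animals and 18574 to 21808 in WT animals. This sum follows its most abundant genes, such as Nefl, at 5552 to 6764 CPM in KO and 3910 to 5772 CPM in WT animals. Pou4f2, at 124 to 200 CPM in KO and 264 to 295 CPM in WT animals, did not overlap. Nor did Thy1, at 260 to 359 CPM in KO and 382 to 458 CPM in WT animals. None of the 13 passed the threshold given below, and 5.06% of all genes tested had no overlap.

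None of the 10 genes passed the threshold between genotypes, and their log2 fold changes were split evenly, 5 above 0 and 5 below. Cntn5, a contactin that patterns dendrites of direction-selective ganglion cells in mouse, was the 1 member whose 4 KO animals all lay above all 4 WT animals, as did 2.58% of all genes tested (5.06% had no overlap in either direction). Cntn1, the most abundant member, and Cntn2 were within 1.01-fold between genotypes. A gene was called where its Benjamini-Hochberg adjusted p, over 13957 genes, was under 0.05 by edgeR's quasi-likelihood fit. By that rule 0.287% of all tested genes were called (0.086% higher in KO), so 0 calls among 10 genes is near the background. Members had adjusted p from 0.480 to 0.998 by the edgeR test, 1 had an unadjusted p under 0.05 against 7.09% of all genes tested, and DESeq2 called 0 members as well. The median log2 fold change was -0.0065 over the members and -0.00071 over all genes tested.

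**Figure D1:**
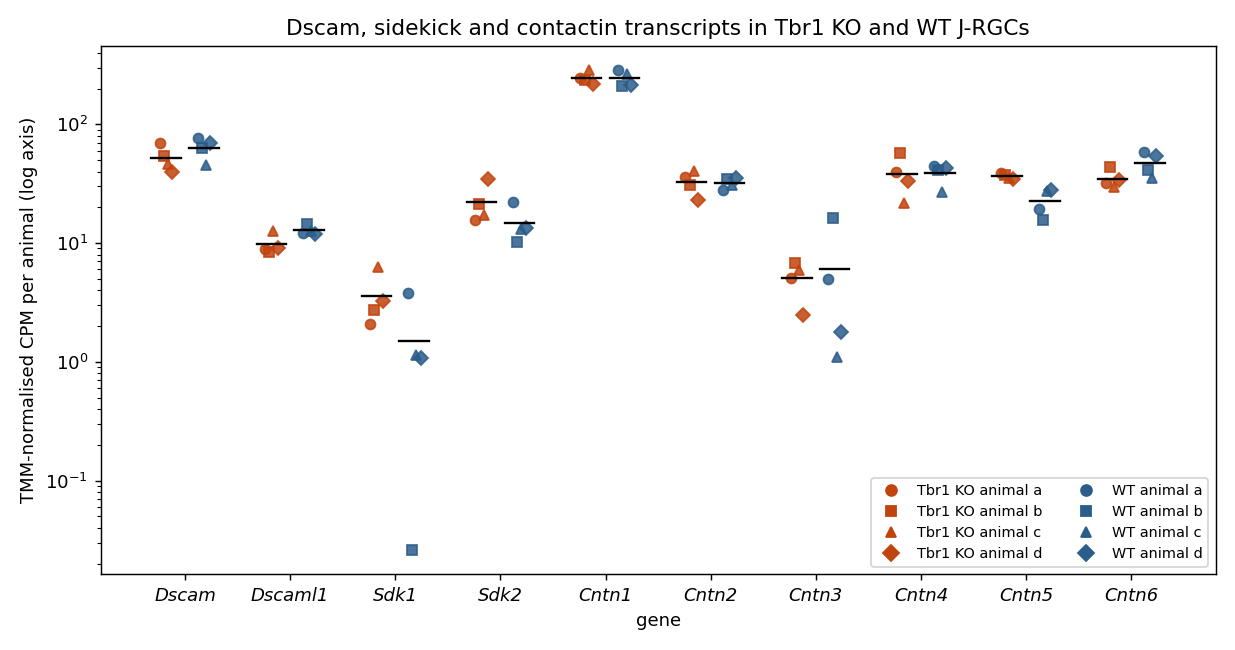
TMM-normalised CPM of each gene per animal on a log axis, with 4 Tbr1 KO animals (orange) left of 4 WT animals (blue) and the mean of each genotype as a black line. Cntn5 is the 1 gene without overlap, with KO animals at 34.7 to 39.0 CPM and WT animals at 15.8 to 27.8 CPM.

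Levels were compared between genes per kilobase of annotated exons, since longer transcripts collect more reads. Cntn1, also called F3, led in both genotypes with 26.1 ± 3.13 CPM per kilobase in KO animals and 25.8 ± 3.95 in WT animals (SD, n = 4 each). It made up 41.8% to 51.6% of the 10 genes' summed CPM per kilobase in KO animals and 40.4% to 52.0% in WT animals. The next level was shared by Cntn5, Dscam, Cntn6, Cntn4 and Cntn2, which averaged 3.48 to 8.08 CPM per kilobase in KO animals and 3.45 to 7.26 in WT animals. Sdk2, Dscaml1, Cntn3 and Sdk1 were lowest, with means of 0.324 to 1.43 CPM per kilobase in KO animals and 0.136 to 1.43 in WT animals. The summed level of the 10 genes was 57.0 ± 4.22 CPM per kilobase in KO animals and 56.7 ± 5.31 in WT animals (SD, n = 4 each).

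In KO animals the order per kilobase ran Cntn1, Cntn5, Dscam, Cntn6, Cntn4, Cntn2, Sdk2, Dscaml1, Cntn3 and Sdk1. In WT animals it ran Cntn1, Cntn6, Dscam, Cntn5, Cntn4, Cntn2, Dscaml1, Sdk2, Cntn3 and Sdk1. In both orders only Cntn1 and the gene after it, and Cntn2 and the gene after it, had ranges over animals that did not overlap. All other neighbours overlapped, so their order is not fixed by these animals. With the longest annotated transcript as the length, 6 of 10 ranks in KO animals and 7 of 10 in WT animals were as before, and Cntn1 stayed first. That length also put Cntn6 clear of Cntn4 in WT animals.

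**Figure D2:**
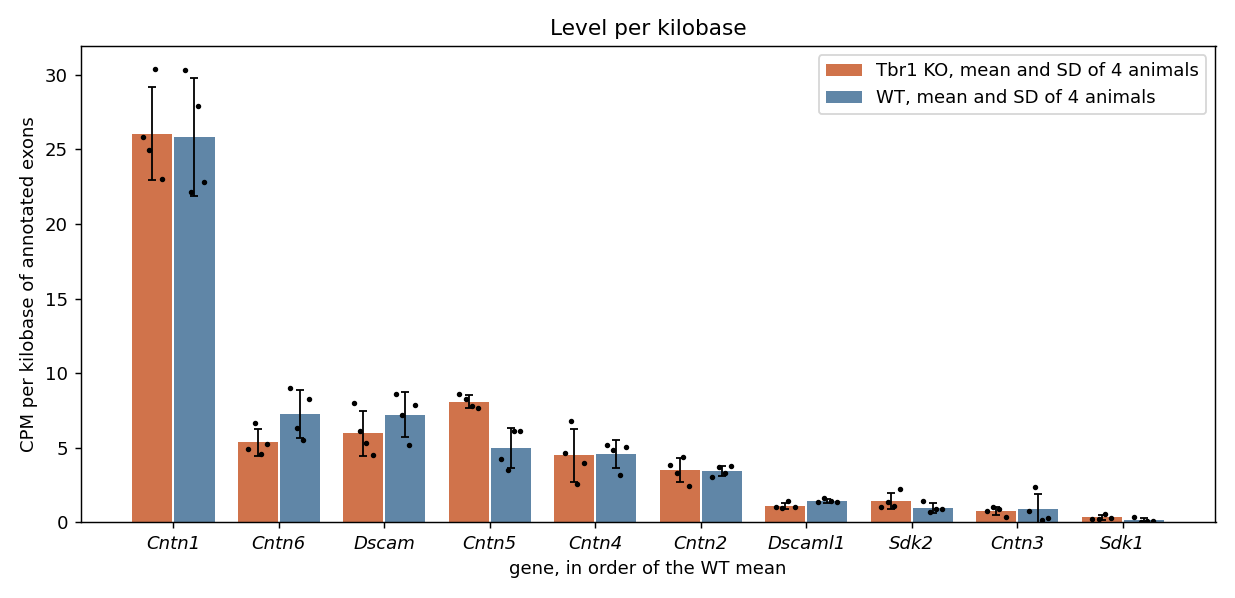
CPM per kilobase of annotated exons, with bars for the mean and whiskers for the SD of 4 animals, and a dot per animal, Tbr1 KO left of WT. Cntn1 stands at 26.1 in KO animals and 25.8 in WT animals, above every other gene, while Sdk1 is lowest in both genotypes.

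Dscam and Dscaml1 are the Dscam family of the mouse. Dscam (GRCm38 chromosome 16, 96590840 to 97170752, minus strand) was at 70.2, 53.6, 46.6 and 39.4 CPM in KO animals a to d, against 75.9, 63.3, 45.6 and 69.4 CPM in WT animals a to d. The genotypes overlapped, with WT animal c below 3 of the 4 KO animals. Its log2 fold change was -0.28 ± 0.22 (SE), a 0.826-fold level with a 95% interval of 0.595 to 1.15. Exons of Dscam share bases with 2 annotated transcripts on the opposite strand, over 1.12% and 1.98% of its exon length. The Smart-seq2 libraries do not mark strand, so reads from the shared bases of such a pair of genes cannot be told apart.

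Dscaml1 (chromosome 9, 45426628 to 45753712, plus strand), which like Dscam keeps retinal cells of 1 type apart, was at 8.98, 8.40, 12.6 and 9.06 CPM in KO animals a to d. In WT animals a to d it was at 12.2, 14.4, 12.7 and 11.8 CPM. Of the KO animals 3 lay below every WT animal, and KO animal c lay inside the WT range. The log2 fold change was -0.39 ± 0.31 (SE). Without KO animal c the remaining animals did not overlap, at 8.34 to 9.09 CPM in KO and 11.8 to 14.3 CPM in WT animals. KO animal c was picked out after the values were seen, as the KO animal inside the WT range, so this split had to follow. In that setting 8.25% of all genes did not overlap, with no animal picked out for them. Dscam stood 3.75 to 7.92 times above Dscaml1 per kilobase in KO animals and 3.64 to 6.31 times in WT animals.

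Sdk1 and Sdk2 encode the sidekick proteins, of which Sdk2 is known in mouse for a connection between an amacrine cell type and a ganglion cell type. Sdk1 (chromosome 5, 141241490 to 142215586, plus strand) was the scarcest member, at 2.07, 2.71, 6.34 and 3.26 CPM in KO animals a to d. In WT animals a to d it was at 3.79, 0.0259, 1.13 and 1.07 CPM. WT animal b had 1 count of Sdk1 in 39643629 reads, and 3 of 4 WT animals lay below every KO animal. Over all libraries there were 562 counts in KO and 168 in WT. The log2 fold change was 1.26 ± 1.10 (SE), a 2.39-fold level with a 95% interval of 0.455 to 12.6. It was 0.85 to 2.78 over the alternatives, and 2.28 without WT animal a.

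Sdk2 (chromosome 11, 113776374 to 114067046, minus strand) was at 15.7, 21.2, 17.2 and 34.3 CPM in KO animals a to d, against 22.3, 10.2, 13.2 and 13.3 CPM in WT animals a to d. As for Sdk1, WT animal a was the 1 WT animal that lay within the KO range. The log2 fold change of Sdk2 was 0.58 ± 0.34 (SE), a 1.495-fold level with a 95% interval of 0.897 to 2.49. It was 0.29 without KO animal d and 0.053 with the second library of each animal. Without WT animal a, both sidekick genes had KO animals above WT animals, as did Cntn5. Sdk1 was then at 2.07 to 6.35 CPM in KO and 0.0259 to 1.13 CPM in WT animals, and Sdk2 at 15.7 to 34.6 CPM in KO and 10.2 to 13.3 CPM in WT animals. In that setting 8.20% of all genes did not overlap, with no animal picked out for them, and the edgeR adjusted p of all members stayed above 0.05. WT animal a was picked out here after the values were seen, as the WT animal inside the KO range. The split of both sidekick genes therefore had to follow.

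Cntn5, also called NB-2 (chromosome 9, 9660891 to 10904775, minus strand), was at 39.0, 37.4, 35.3 and 34.7 CPM in KO animals a to d. In WT animals a to d it was at 19.2, 15.8, 27.6 and 27.8 CPM. The KO animals lay close together and above every WT animal, whereas the WT animals spread more widely. That closeness holds for sums per animal, since KO animal b joined pools at 27.2 and 54.6 CPM. The log2 fold change was 0.70 ± 0.24 (SE), a 1.62-fold level with a 95% interval of 1.14 to 2.31. The edgeR quasi-likelihood adjusted p was 0.480, and 0.222 to 0.766 over the alternatives. An exact two-sided permutation test over 4 against 4 animals gave p = 0.0286, the smallest that this design allows. Any gene without overlap between these animals gets this p, so it adds nothing to the lack of overlap. Over all genes tested, 5.06% had no overlap between genotypes, so 1 of 10 members is not far from the background. An antisense transcript, Gm32710, shares 290 bases, or 6.4%, of the exon length of Cntn5.

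Of the marker sums reported here, those of Müller glia and of horizontal cells also differed between genotypes without overlap, and a pair of genes carried each sum. Summed CPM of 8 Müller glia markers was 437 to 504 in KO animals and 215 to 323 in WT animals, with Clu and Dkk3 called among 7 tested. Dkk3 was at 240.4 to 291 CPM in KO animals and 125 to 189.9 CPM in WT animals, and Clu at 92.3 to 117 CPM in KO animals and 54.1 to 65.6 CPM in WT animals. The other 6 Müller glia markers summed to 55.4 to 155 CPM in KO animals and 36.2 to 92.7 CPM in WT animals, which overlapped. The 9 amacrine markers reported here summed to 32.5 to 60.6 CPM in KO animals and 24.0 to 62.6 CPM in WT animals, and these ranges overlapped. Gad1, which defines GABA neurons, was at 0 to 1.72 CPM in KO and 0.414 to 1.94 CPM in WT animals, and the starburst cell gene Chat was at 0 in 3 KO animals and 1 WT animal. Higher amacrine markers were Slc6a9, at 11.8 to 38.9 CPM in KO and 5.21 to 15.9 CPM in WT animals, and Gad2, at 4.61 to 14.3 CPM in KO and 8.99 to 22.7 CPM in WT animals. Tfap2b was at 0.134 to 23.8 CPM in KO and 1.45 to 17.0 CPM in WT animals. The 4 horizontal cell markers in the files summed to 93.3 to 123 CPM in KO animals and 47.1 to 64.8 CPM in WT animals, nearly all of it from Sept4 and Calb1. Onecut1 was at 0 to 1.27 CPM in KO animals and 0 to 0.581 CPM in WT animals, and Lhx1 was at 0 in every animal. Other lists that overlapped were photoreceptor markers at 26.1 to 799.7 CPM in KO and 19.2 to 210.03 CPM in WT animals, and bipolar markers at 48.2 to 109 CPM in KO and 36.5 to 60.1 CPM in WT animals. The astrocyte, vascular and microglial list was at 4.26 to 16.2 CPM in KO and 12.6 to 49.4 CPM in WT animals. The part of these cells in the levels of Cntn5 and the other members was not tested. In pools of sorted cells, fewer cells of a type and less RNA per cell cannot be told apart.

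The start of Cntn5 is shown because it is the member whose animals did not overlap. The 250 bases before its first RefSeq start, at chr9:10904776-10905025 on the minus strand of GRCm38.p6, read 5′ to 3′ as follows, in lower case since no searched motif was found in them.
Cntn5 upstream: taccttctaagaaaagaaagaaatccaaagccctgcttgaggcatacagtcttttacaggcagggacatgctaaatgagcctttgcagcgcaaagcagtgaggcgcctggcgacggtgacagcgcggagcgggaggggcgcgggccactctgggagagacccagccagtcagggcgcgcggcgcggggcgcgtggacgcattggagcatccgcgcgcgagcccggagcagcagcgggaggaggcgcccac
This window had 64.8% G and C, against a median of 52.4% over 32851 such windows of all genes, and held 24 CG steps against a median of 6. It was searched on both strands for the T-box motif AGGTGTGA, its 7-base core GGTGTGA and the 6-base AGGTGT, which overlap one another. None of the 13 windows of the 9 members in the table held any of the 3. Over all windows the shares were 1.12%, 3.33% and 11.8%, so that few matches would be found in 13 windows of any genes. Member windows ranged from 26.4% G and C at Cntn3 to 78.8% at Sdk2.

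Cntn6, also called NB-3 (chromosome 6, 104492790 to 104863406, plus strand), pointed the other way. It was at 31.9, 43.4, 29.8 and 34.0 CPM in KO animals a to d, against 58.3, 40.9, 35.6 and 53.8 CPM in WT animals a to d. Of the KO animals 3 lay below all WT animals, and KO animal b lay inside the WT range. The log2 fold change was -0.44 ± 0.22 (SE), a 0.738-fold level with a 95% interval of 0.532 to 1.02, and the edgeR adjusted p was 0.751. Without KO animal b the animals did not overlap, at 29.8 to 34.0 CPM in KO and 35.6 to 58.2 CPM in WT animals. KO animal b was likewise picked out after the values were seen, so this split had to follow. In that setting 7.57% of all genes did not overlap, with no animal picked out for them.

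Per kilobase of annotated exons, Cntn5 averaged above Cntn6 in KO animals and below it in WT animals. Cntn5 was 1.24 to 1.75 times the level of Cntn6 in the KO animals and 0.472 to 1.11 times in the WT animals, with WT animal c the 1 control above an even ratio. As a share of the 6 contactins' summed CPM per kilobase, Cntn5 was 16.8% ± 1.21 in KO animals and 10.7% ± 2.96 in WT animals (SD, n = 4 each). Cntn6 was 11.1% ± 1.87 in KO animals and 15.4% ± 2.71 in WT animals (SD, n = 4 each). Cntn1 held 54.0% ± 4.61 in KO animals and 54.8% ± 5.21 in WT animals (SD, n = 4 each). With the longest transcript as the length, Cntn6 averaged above Cntn5 in both genotypes, 1.08-fold in KO animals, so their order in KO animals rests on the length used. These ratios were chosen after the values were seen and were not tested.

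Cntn1 (chromosome 15, 92051165 to 92341967, plus strand), a contactin of axons and paranodes, was at 244, 235, 287 and 217 CPM in KO animals a to d, against 286, 209, 264 and 215 CPM in WT animals a to d. The genotypes covered nearly the same range. The fold level was 1.01 with a 95% interval of 0.824 to 1.24, the narrowest of the 10 genes. Cntn2, or TAG-1 (chromosome 1, 132509427 to 132543256, minus strand), a contactin of growing axons, was at 35.7, 30.6, 40.4 and 22.8 CPM in KO animals and 28.1, 34.4, 30.8 and 35.0 CPM in WT animals. Both the highest and the lowest animal were KO animals. Its fold level was 1.01 with an interval of 0.721 to 1.41. Cntn4, which in mouse guides ganglion cell axons to a brain target together with the amyloid precursor protein (chromosome 6, 105677660 to 106699310, plus strand), was at 39.6, 57.7, 21.6 and 33.6 CPM in KO animals. In WT animals it was at 44.2, 41.2, 27.1 and 42.9 CPM, and the KO animals held both extremes. Its fold level was 0.982 with an interval of 0.640 to 1.51.

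Cntn3, or PANG (chromosome 6, 102162655 to 102573101, minus strand), varied most widely among the contactins in WT animals. It was at 5.08, 6.73, 5.96 and 2.48 CPM in KO animals a to d, against 4.96, 16.1, 1.10 and 1.79 CPM in WT animals a to d. The 4 KO animals lay inside the range of the WT animals, whose highest value came from WT animal b. The log2 fold change was -0.24 ± 0.78 (SE) and turned to 0.95 without WT animal b. The coefficient of variation was 36.6% in KO animals and 116% in WT animals.

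**Figure D3:**
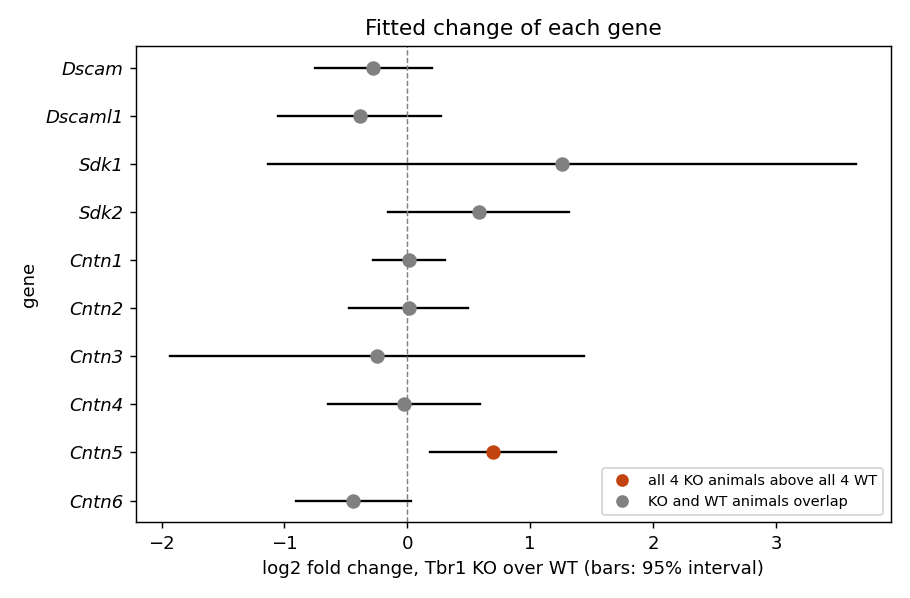
Fitted log2 fold change of each gene, Tbr1 KO over WT, with the 95% interval from the edgeR fit. The interval of Cntn5 (0.18 to 1.21) lies above 0, those of the other 9 genes span 0, and Sdk1 and Cntn3 have the widest.

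Animals b of WT and a and b of KO gave a pair of pools each, which shows how far 1 pool of 100 cells stands for an animal. Dscam was steady, with a fold between pools of 1 animal of at most 1.20, and Cntn4 with at most 1.28. Cntn1 differed by at most 1.36-fold. Over all genes with at least 10 CPM the median fold between pools was 1.24 and 1.21 in the KO animals and 1.32 in the WT animal.

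Pools of 1 animal lay further apart for Sdk2, Dscaml1, Cntn3, Cntn6, Cntn5, Sdk1 and Cntn2. In KO animal a the pools differed by 2.31-fold for Cntn3, 2.00-fold for Sdk1 and 1.74-fold for Cntn2. Sdk1 had 1 count in a pool of WT animal b and 0 in the other. Sdk2 was at 27.1 and 5.31 CPM in the pools of WT animal b, a 5.11-fold gap. Dscaml1 was at 29.6 and 9.99 CPM in those pools and at 15.4 and 5.58 CPM in the pools of KO animal a. Cntn6 was at 69.3 and 32.6 CPM in the pools of WT animal b, and Cntn5 at 54.6 and 27.2 CPM in the pools of KO animal b. The lower of these Cntn5 pools lay under WT libraries 4 and 5, at 27.6 and 27.7 CPM, so single pools of the genotypes overlapped. With the first-numbered library of each animal only, the exact permutation p of Cntn5 was 0.0857 and no member was free of overlap, against 4.61% of all genes in that setting.

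**Figure D4:**
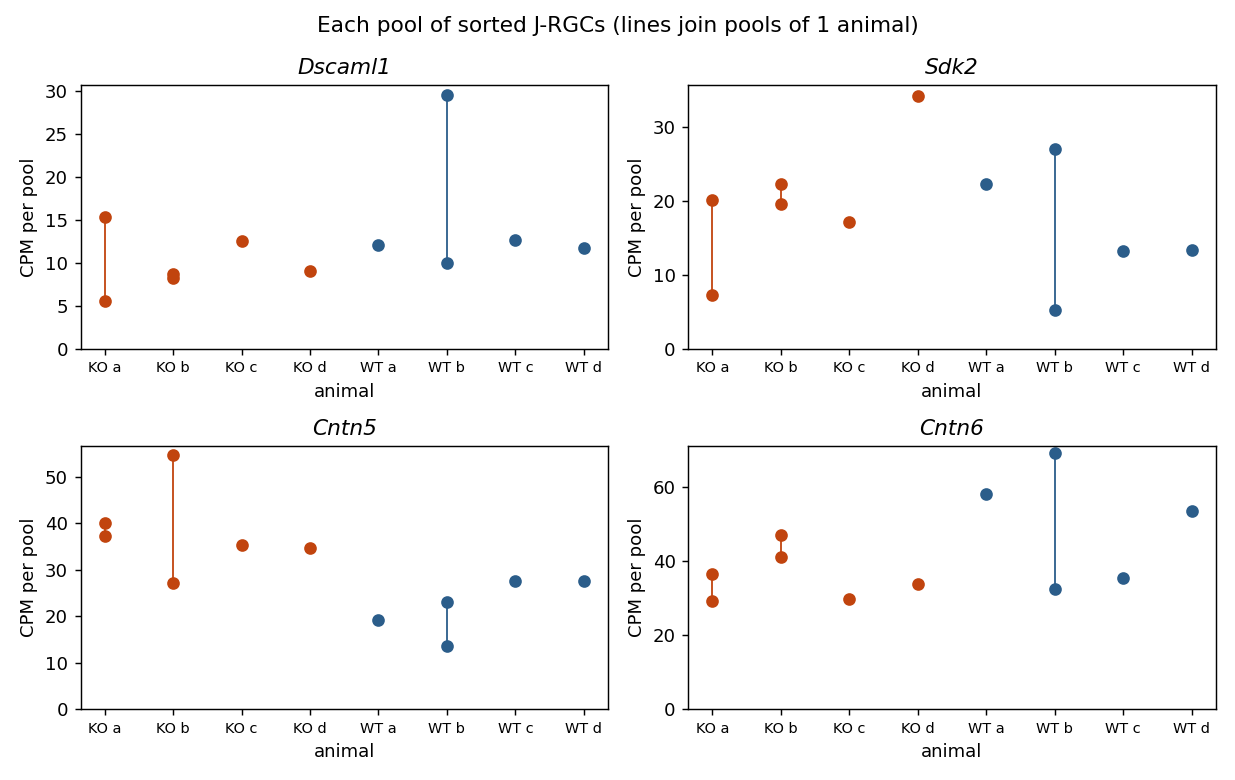
CPM of Dscaml1, Sdk2, Cntn5 and Cntn6 in each of 6 Tbr1 KO pools (orange) and 5 WT pools (blue), with lines joining pools of 1 animal. The pools of WT animal b lie far apart for Dscaml1, Sdk2 and Cntn6, and those of KO animal b for Cntn5.

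The members share a large size and, in part, a neighbourhood. Their genes spanned 33.8 kb (Cntn2) to 1244 kb (Cntn5), with a median of 391 kb against 17.4 kb for all protein-coding genes, and 9 of 10 were longer than the 90th percentile of 109.9 kb. Cntn3, Cntn6 and Cntn4 lie in this order within 4.54 Mb of chromosome 6. The 1 other protein-coding gene in that stretch was Chl1, an L1-family adhesion gene, at 184 ± 14.8 CPM in KO animals and 160 ± 18.7 CPM in WT animals (SD, n = 4 each). Its log2 fold change was 0.20 ± 0.12 (SE), set against -0.44, -0.24 and -0.026 for Cntn6, Cntn3 and Cntn4.

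Among 10 tested partners of Dscam and sidekick proteins, Magi1 fell and the other 9 did not pass. Of the 10, 2 had no overlap between genotypes, Magi1 and Dcc. Over all genes tested, 0.287% were called (0.201% lower in KO) and 5.06% had no overlap. Magi1 encodes a scaffold with PDZ domains of the family that binds the tails of sidekick and Dscam proteins. It was at 112, 115, 144 and 91.6 CPM in KO animals a to d, against 213, 263, 217 and 309 CPM in WT animals a to d. All KO animals lay below all WT animals, and the fitted log2 fold change was -1.12 ± 0.16 (SE). Of the marker sums reported here, those of Müller glia and horizontal cells also differed between genotypes without overlap, and their part in this fall was not tested. The edgeR quasi-likelihood adjusted p was 0.0114, and it was 0.0552 without KO animal a, 0.0703 without KO animal b and 0.0615 without WT animal b. Its relatives Magi2 and, named after the values were seen, Magi3 had log2 fold changes of 0.26 ± 0.17 and 0.38 ± 0.52 (SE).

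Dcc, a netrin receptor to which Dscam can bind, was at 53.9 ± 3.21 CPM in KO animals and 31.6 ± 5.03 CPM in WT animals (SD, n = 4 each), with no overlap. Its edgeR adjusted p was 0.170, while DESeq2 called it at an adjusted p of 0.0191. Dlg4, the PSD-95 scaffold, had a log2 fold change of -0.15 ± 0.17 (SE). Ntn1, the netrin ligand, was too low to test. The median log2 fold change of these partners was -0.0035.

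Of 18 tested contactin partners none was called, against 0.287% of all genes tested. No overlap between genotypes was seen for 1 of the 18, against 5.06% of all genes tested. Aplp2, an amyloid precursor relative, was at 806 ± 52.9 CPM in KO animals and 637 ± 70.9 CPM in WT animals (SD, n = 4 each), with no overlap. App itself was at 559 ± 33.2 CPM in KO animals and 706 ± 100.02 CPM in WT animals (SD, n = 4 each), with 3 KO animals below all WT animals. Aplp2 and App had edgeR adjusted p of 0.413 and 0.472. Nrcam, an L1-family adhesion gene, and Cntnap1, the paranodal partner of Cntn1, had log2 fold changes of 0.35 ± 0.16 and 0.55 ± 0.38 (SE). Cntnap4, known in mouse as the co-receptor of Cntn5 and named here after its values were seen, was at 0 to 4.03 CPM in KO animals and 0.466 to 5.37 CPM in WT animals. The median log2 fold change of the contactin partners was 0.12.

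Among 10 other tested genes listed for inner plexiform layer lamination, Jam2, also the defining gene of these cells, fell. Its log2 fold change was -2.31 ± 0.17 (SE). It was the 1 gene of this list called, against 0.287% of all genes tested. Jam2 and Cdh8 had no overlap between genotypes, against 5.06% of all genes tested. Cdh8, a type II cadherin of bipolar cell lamination, was at 77.6 ± 16.5 CPM in KO animals and 124 ± 17.4 CPM in WT animals (SD, n = 4 each). The published study of these samples names Jam2 and Cdh8, so their direction is not independent evidence for this list. The plexins Plxna2 and Plxna3, receptors for semaphorins, had log2 fold changes of 0.95 ± 0.30 and -0.62 ± 0.20 (SE). The edgeR adjusted p was 0.272 for Cdh8, 0.422 for Plxna2 and 0.462 for Plxna3, while DESeq2 called Cdh8 at an adjusted p of 0.0455. The median over this list was 0.18.

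**Figure D5:**
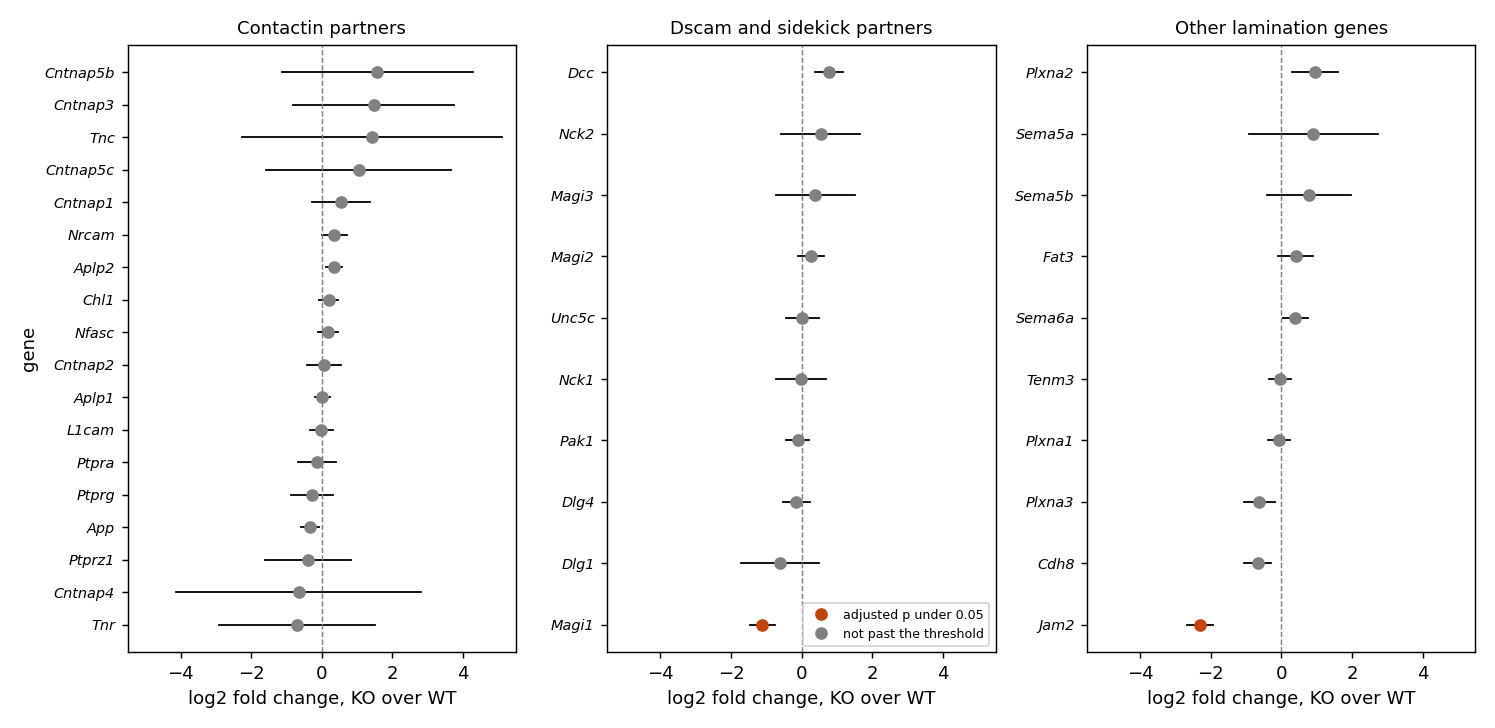
Log2 fold change, Tbr1 KO over WT, with 95% intervals for the tested genes of each list. Magi1 and Jam2 are the genes past the threshold, both lower in KO animals, at -1.12 and -2.31.

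Among 7994 other genes with at least 16 CPM on average, the profile over 8 animals most like that of Cntn5 belonged to Dixdc1, Stk3 and Pls3. Their centred log2 CPM differed from that of Cntn5 by a root-mean-square of 0.13, 0.14 and 0.14. The closest to Cntn6 were Ipw, Gtdc1 and Asna1, at 0.10, 0.11 and 0.14. These 6 genes were picked for their closeness, so small distances and fold changes near those of Cntn5 and Cntn6 had to follow. None of the 6 was called, with edgeR adjusted p of 0.102 for Pls3 and 0.465 to 0.900 for the other 5.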

How the data were processed

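RNA was sequenced from 11 libraries of sorted J-RGC pools, made with Smart-seq2 and Nextera XT from a single end, per the labels' protocols. The authors deposited whole-number read counts for each gene symbol. Trimmomatic 0.32, TopHat2 2.0.10 and HTSeq 0.6.1 with mm10 are named in the submitters' processing notes. The sources used here state neither the gene annotation nor whether counting used strand, which Smart-seq2 does not mark. The 5 lines that name no gene were left out. They held reads in no feature (20.0% to 24.8% of each library), ambiguous reads (1.31% to 1.47%) and non-unique reads (13.2% to 14.6%).

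Counts were summed per animal, since 3 animals gave a pair of libraries each. Filtering with filterByExpr left 13957 genes, all 10 members among them, although Sdk1, Cntn3 and Dscaml1 averaged under 10 CPM in a genotype. After TMM scaling, genotypes were compared by edgeR 4.0.16 (R 4.3.3) with glmQLFit, robust, and glmQLFTest, and p-values were adjusted by Benjamini-Hochberg over all genes. The SE is the size of the log2 fold change over the square root of F, and 95% intervals come from it. Nothing ties the animals to separate litters or days, so p-values measure the spread between these animals.

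On simulated data of this 4 against 4 design (13636 genes, 100 changed by each fold, all with at least 1 CPM), 33% of the 2-fold changes and 60% of the 4-fold changes were called, with 2 false calls, and 0 when nothing was changed. The simulation gave each gene the spread typical of its level, not its own, and pooled changed genes of all levels. Its shares are therefore not the recovery to be had for any single member. Permutation tests were exact, over animals, on log2 CPM with a prior count of 0.5. Positions, exon lengths and overlaps came from GENCODE M21 (GRCm38, the build mm10), and upstream windows from RefSeq (GRCm38.p6). Dscaml1 has no window in that table. Alternatives tried were libraries in place of animals (with and without a replicate block), the first or second library of each animal, each animal left out, median-of-ratios and upper-quartile scaling, a looser filter, DESeq2 1.42.0 and estimation that is not robust. Plots used matplotlib 3.10.9.

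All 10 members are named. From each partner list up to 4 genes are named, those called first, then the largest log2 fold changes among genes with at least 16 CPM in a genotype. Genes outside that rule are marked or serve as checks. The members and lists were chosen with earlier results of these data known. One marker of the amacrine list is not reported here.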

Additional observations from a re-analysis of the deposited data

Results flagged for a closer look

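Dscaml1 in KO animal c was at 12.6 CPM, against 8.40 to 9.06 CPM in the other 3 KO animals. The gap to the nearest animal was 0.842 of the whole range of the 4 KO animals, above Dixon's 95% limit for 4 samples. Of 20 groups of 4 animals (10 genes in each genotype), this 1 passed the limit, and chance flags about 1 in 20 groups. KO animal c was also the highest of all animals in summed photoreceptor markers, at 799.7 CPM against 19.2 to 210.03 CPM in the others, and their part in this value was not tested.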

How the results depend on the processing

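No member was called in any of 17 alternatives, and Dscam, Dscaml1, Sdk1, Sdk2, Cntn5 and Cntn6 kept their direction in all of them, although Sdk2 ranged from 0.053 to 0.86 and Sdk1 from 0.85 to 2.78 on the log2 scale (Sdk2 0.19 with the replicate block). The number of genes called was 84 with libraries as replicates and 156 with DESeq2, against 40, and 17 to 44 with 1 animal left out. Members free of overlap numbered 0 with libraries as replicates, with the replicate block and with the first library of each animal (1.77%, 1.77% and 4.61% of all genes), and 1 to 3 with 1 animal left out (7.57% to 8.68% of all genes), when the exact permutation p of Cntn5 was 0.0286 to 0.0857 (0.0857 with the first library of each animal). Called Dscam and sidekick partners numbered 2 with libraries as replicates and with DESeq2, and 0 to 1 with 1 animal left out. Called genes of the lamination list numbered 2 with DESeq2, which added Cdh8 to Jam2. With the longest transcript as length, 6 of 10 ranks in KO animals were as before. The cause of these shifts was not tested.

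Log2 fold changes near 0 changed sign. With libraries as replicates Cntn2 was at -0.020 and Cntn4 at 0.062, with the first library of each animal Cntn4 was at 0.027, and with the second Cntn1 was at -0.029 and Cntn2 at -0.072. With 1 animal left out the ranges were -0.061 to 0.11 for Cntn1, -0.11 to 0.15 for Cntn2, -0.59 to 0.95 for Cntn3, -0.30 to 0.17 for Cntn4, -0.24 to 0.015 for Dlg4 and -1.23 to -0.996 for Magi1. Replicate numbers in the titles name libraries and do not pair genotypes. Same-numbered libraries had correlations of -0.054 to 0.18 between their deviations from the genotype means, and 4 of 10 libraries correlated best with their own number. Pools of 1 animal had correlations of only -0.24 to 0.067 on that measure. Low values therefore cannot show that same-numbered libraries are unrelated. Library-level fits with the replicate block called 43 genes, 0 members and the same number of genes in each partner list, and put Cntn3 at 0.21 and Cntn4 at 0.055 (Cntn5 at 0.82, edgeR adjusted p = 0.353), with KO library 6 adding nothing. The 95% intervals ran from 0.455-fold to 12.6-fold for Sdk1 and from 0.263-fold to 2.72-fold for Cntn3, so large differences of these were not detectable with these animals. Alternatives for Tbr1, partner genes and the permutation test were added after seeing the data.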
